A study of Homo sapiens with 6 samples.

Results

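The genes described here are the 10 that encode the cyclins, cyclin-dependent kinases and kinase inhibitors of the G1 phase of the cell cycle. They were picked by symbol from the 58884 genes of the count tables, by a rule that holds no measured value but was written with earlier results of these data known. All 10 passed the filter on low counts and were tested. The members were the D-type cyclins *CCND1*, *CCND2* and *CCND3*, the E-type cyclins *CCNE1* and *CCNE2*, the kinases *CDK4*, *CDK6* and *CDK2*, and the inhibitors *CDKN1A* and *CDKN1B*. The mRNA of HSC-4 cells, a cell line established from a human squamous carcinoma of the mouth, was sequenced after 24 h with 50 µM DAPT in 3 libraries and in 3 control libraries. DAPT inhibits γ-secretase, the protease that frees the intracellular domain of Notch receptors. The study's methods name DMSO as the vehicle of the controls, while the deposited control columns are marked GM without a key. If GM means culture medium only, vehicle and DAPT effects cannot be told apart. The data come from 1 cell line, 1 dose and 1 time. The labels do not say whether the numbered replicates were separate cultures, so p-values measure the spread between these libraries, which may be technical. Within each group, libraries were compared in pairs by chi-square per degree of freedom, where counting error alone gives about 1. Replicates 2 and 3 lay close, at 1.581 in the controls and 1.808 with DAPT. Replicate 1 stood apart from them in both groups. Its pairs were at 5.68 and 5.577 in the controls and at 4.082 and 3.896 with DAPT. The source of this difference was not tested.

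In G1, D-type cyclins accumulate in response to growth signals and activate CDK4 and CDK6. These kinases begin the phosphorylation of the retinoblastoma protein RB, which releases E2F transcription factors. E2F factors switch on the E-type cyclins, which activate CDK2 and carry the cell into S phase. The inhibitors p21, encoded by *CDKN1A*, and p27, encoded by *CDKN1B*, bind cyclin-kinase complexes and block CDK2, so their levels set a threshold against entry into S phase. In squamous carcinomas this switch is often altered, for instance by gain of *CCND1*.

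The libraries held 12276313 to 16317672 counted reads each. All 5 Notch target genes examined, *HES1*, *HES2*, *HES4*, *HEY1* and *NRARP*, were lower in the DAPT libraries, and their log2 fold changes lay between -2.45 for *HES2* and -0.77 for *HES1*. Of 7 epithelial markers, all were called in the comparison of DAPT with control, against 35.2% of all tested genes. The keratins and *TP63* were lower, 5 genes, and 2 were higher, *CDH1* and *EPCAM*, each at 0.27 on the log2 scale. The summed level of the 7 was 4706 to 4879 CPM (counts scaled to the size of the library) in the controls and 2885 to 3039 CPM with DAPT. *KRT5* made up the largest part of this sum, with means of 2701 CPM in the controls and 1315 CPM with DAPT. In contrast, *KRT14*, also a basal keratin, had few counted reads, with means of 3.17 CPM in the controls and 0.443 CPM with DAPT. Reads that overlapped several genes or mapped to several places were left uncounted. Whether *KRT14* lost reads in this way was not tested. Control replicate 1 stood apart from the other 5 libraries in 5 fibroblast genes, which summed to 546.2 CPM there, against 57.9 and 56.9 CPM in the other controls and 49.7 to 54.9 CPM with DAPT. In that library *COL1A2* had 3452 reads, against 3 to 28 in the others. Markers of leukocytes summed to at most 3 reads per library, of endothelium to 9 to 22 and of melanocytes to 18 to 46. All the melanocyte reads came from *PMEL*, a gene on the strand opposite *CDK2*. Because control replicate 1 differed, each member's result is also given without it.

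With DAPT, 6 of the 10 members were lower and 3 were higher. The lower members were *CCND1*, *CCND3*, *CCNE1*, *CCNE2*, *CDK4* and *CDK2*. The higher members were *CCND2* and both inhibitors. *CDK6* did not pass the test. Across all 15001 tested genes, 35.2% were called at an adjusted p under 0.05 by the edgeR quasi-likelihood test with Benjamini-Hochberg adjustment, 18.0% lower and 17.2% higher, so a call in itself was common. The median log2 fold change was -0.36 over the 10 members and 0.01 over all tested genes. The CPM ranges of the groups did not overlap for the same 9 members, and the same was true of 46.3% of all tested genes. At a change of at least 1.5-fold, 4.71% of all tested genes were called lower and 2.29% higher, and 1 member was called, *CCND1*, which was lower. Of all called genes, 48.7% were higher, or 61.5% when libraries were scaled by their totals alone, and under both scalings 6 members were lower and 3 higher. In bulk RNA, fewer cells in a given state and less RNA per cell cannot be told apart. When control replicate 1 was left out, 6 members were again lower and 3 higher.

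**Figure D1:**
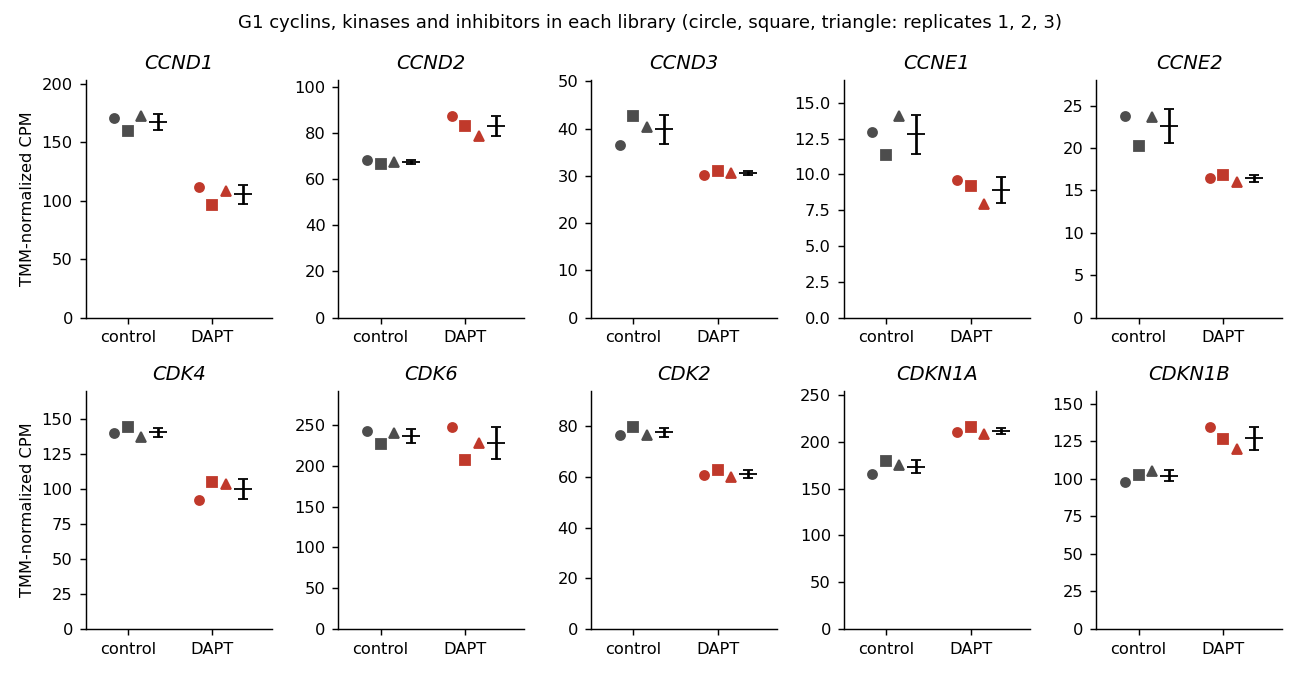
CPM (TMM-normalised) of the 10 members in each of the 6 libraries, with a point for each library and, beside the points, the group mean with its SD (n = 3 per group). Control and DAPT libraries stood apart for 9 members and overlapped for *CDK6*.

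*CCND1* encodes cyclin D1, the partner of CDK4 and CDK6 that growth signals induce most directly. Its level was 170.4, 159.7 and 172 CPM in the controls and 112, 95.9 and 108 CPM with DAPT. Every DAPT library was below every control library. The mean fell from 167 ± 6.80 to 105 ± 8.26 CPM (SD, n = 3), a log2 fold change of -0.67 ± 0.06 (SE; adjusted p = 8.91e-09, edgeR quasi-likelihood test). This change of -37.1% was the largest in size among the members, and 6.70% of all tested genes had a larger one. Without control replicate 1 it was -0.65 on the log2 scale. The gene lies at chr11:69641087-69654474 on the plus strand (GRCh38).

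*CCND2* encodes cyclin D2, a second partner of the same kinases. It measured 68.2, 66.5 and 67.3 CPM in the controls and 87.5, 83.1 and 78.8 CPM with DAPT. The DAPT libraries were all higher, and the controls lay close together, with an SD of 0.840 CPM. Its log2 fold change was 0.30 ± 0.06 (SE; adjusted p = 0.00021, edgeR quasi-likelihood test), a rise of 23.5%. Without control replicate 1 the value was 0.32. Its exons, at chr12:4273762-4305353 on the plus strand, share 13.9% of their bases with another gene model on the same strand, ENSG00000285901, which had 0 reads in all 6 libraries. Reads that touched both models were left uncounted, so the level of *CCND2* may be understated in both groups.

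*CCND3* encodes cyclin D3, which also pairs with CDK4 and CDK6. It measured 36.5, 42.7 and 40.4 CPM in the controls and 30.2, 30.9 and 30.7 CPM with DAPT. Here the spread lay in the controls, with an SD of 3.13 CPM against 0.367 CPM with DAPT, and the groups did not overlap. The log2 fold change was -0.38 ± 0.08 (SE; adjusted p = 0.000463, edgeR quasi-likelihood test). It was -0.44 without control replicate 1, the lowest of its controls. The gene lies at chr6:41934933-42050357 on the minus strand.

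*CCND1* and *CCND2* therefore moved in opposite directions, and the make-up of the D-type cyclin mRNA differed between the groups. Levels of different genes are compared here as TPM, a level scaled to both exon length and library depth. TPM was computed without the TMM factors used for CPM. The size of a change between groups therefore differs between TPM and the tested CPM scale. *CCND1* was 69.1%, 66.5% and 68.6% of the summed D-type cyclin TPM in the controls and 57.0%, 54.0% and 58.0% with DAPT. *CCND2* was 18.1% to 18.7% of it in the controls and 28.4% to 31.5% with DAPT. The share of *CCND3* overlapped between the groups, at 12.3% to 14.8% and 12.9% to 14.5%. The D-type cyclins summed to 172 to 183 TPM in the controls and 138 to 150 TPM with DAPT, so the sum was lower although 1 of its parts was higher.

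The ratio of a pair of genes within a library does not depend on how libraries are scaled to each other, so 5 such ratios were compared. With 3 libraries against 3, a two-sided exact permutation test cannot give a p under 0.1. *CCND2* per *CCND1* was 0.270, 0.281 and 0.263 in the controls and 0.529, 0.583 and 0.489 with DAPT (exact permutation p = 0.1, 0.167 after adjustment over the 5 ratios). Its mean log2 ratio rose by 0.97, a fold of 1.96. *CCND3* per *CCND1* was 0.178 to 0.223 in the controls and 0.226 to 0.268 with DAPT, a difference of 0.29 on the log2 scale (exact permutation p = 0.1, adjusted 0.167). For both ratios the groups stood apart, and the design allows no smaller p.

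**Figure D2:**
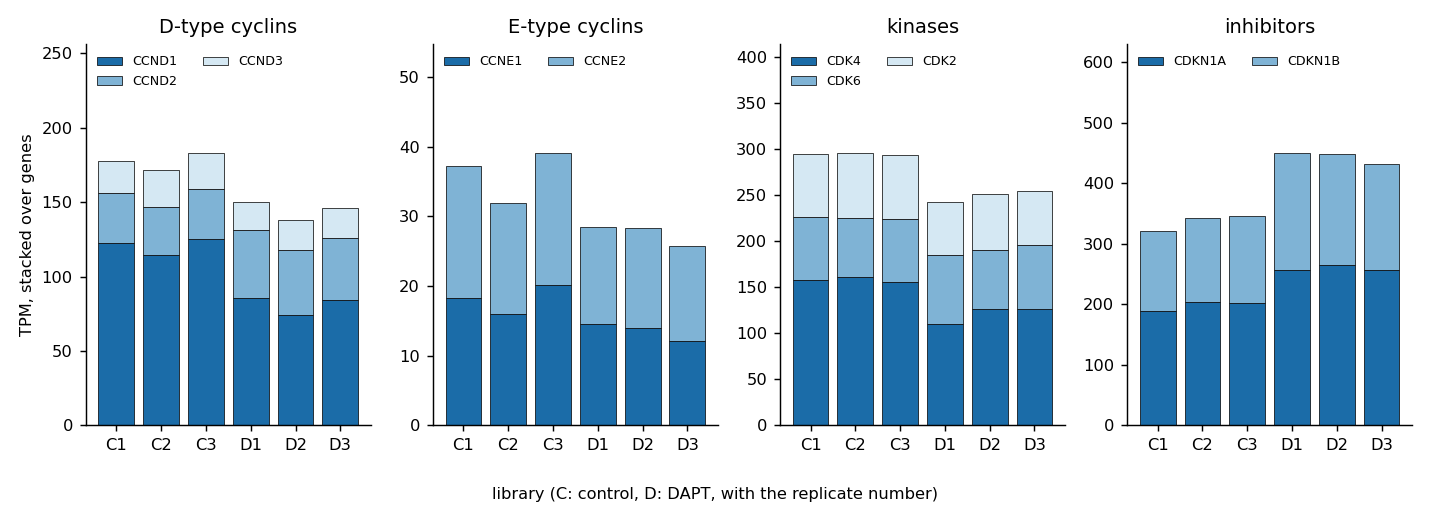
Summed TPM of the D-type cyclins, E-type cyclins, kinases and inhibitors in each library, divided among their members. The D-type, E-type and kinase bars were lower with DAPT, the inhibitor bars were higher, and *CCND2* took a larger part of the D-type bar with DAPT.

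*CCNE1* and *CCNE2* encode cyclins E1 and E2, the partners of CDK2 at the entry into S phase. *CCNE1* measured 13.0, 11.3 and 14.1 CPM in the controls and 9.61, 9.21 and 7.91 CPM with DAPT. *CCNE2* measured 23.8, 20.3 and 23.7 CPM in the controls and 16.5, 16.8 and 15.98 CPM with DAPT. Both were lower in every DAPT library than in any control. *CCNE1* lies at chr19:29811991-29824312 on the plus strand and *CCNE2* at chr8:94879770-94896678 on the minus strand. The log2 fold changes were -0.51 ± 0.12 for *CCNE1* and -0.46 ± 0.09 for *CCNE2* (SE; adjusted p = 0.0016 and 0.000306, edgeR quasi-likelihood test). Without control replicate 1 they were -0.50 and -0.41. *CCNE1* rested on the fewest reads of any member, 103 to 208 per library, and its SD was 10.8% of the mean in the controls, where counting alone gives 7.49%.

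Both E-type cyclins fell, and their ratio overlapped between the groups. *CCNE2* per *CCNE1* was 0.942 to 1.03 in the controls and 0.961 to 1.13 with DAPT, a difference of 0.06 on the log2 scale (exact permutation p = 0.5, adjusted 0.625). On the TPM scale the E-type cyclins were the scarcest members, at 18.1 ± 2.10 TPM for *CCNE1* and 17.9 ± 1.69 TPM for *CCNE2* in the controls (SD, n = 3). They became 13.5 ± 1.26 and 14.0 ± 0.320 TPM with DAPT.

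*CDK4* encodes the kinase that, with cyclin D, begins RB phosphorylation. It measured 140.1, 144 and 137 CPM in the controls and 92.1, 105 and 104 CPM with DAPT. Every DAPT library was lower, replicate 1 most of all. The gene lies at chr12:57747727-57756013 on the minus strand. The log2 fold change was -0.49 ± 0.06 (SE; adjusted p = 6.01e-07, edgeR quasi-likelihood test), and it was also -0.49 without control replicate 1. By p-value, *CDK4* ranked 344 among all tested genes, after *CCND1* at 143. Of its exonic bases, 44.2% lie opposite *TSPAN31*, a gene on the other strand that was counted separately by strand and did not pass the test, at 0.07 on the log2 scale (adjusted p = 0.546).

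*CDK6* encodes the second cyclin D-dependent kinase. It measured 243, 228 and 240.3 CPM in the controls and 247, 208 and 229 CPM with DAPT. The gene lies at chr7:92604921-92836594 on the minus strand. The groups overlapped, with both the highest and the lowest library in the DAPT group. Its log2 fold change was -0.06 ± 0.06 (SE; adjusted p = 0.481, edgeR quasi-likelihood test). The 95% interval of the fold, 0.886 to 1.05, left room for a small change in either direction. Without control replicate 1 the log2 fold change was -0.03. Depth was not scarce here, since 2843 to 3908 reads per library supported the value.

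*CDK2*, at chr12:55966781-55972789 on the plus strand, encodes the partner of the E-type cyclins. It measured 76.7, 79.6 and 76.5 CPM in the controls and 60.7, 62.8 and 59.9 CPM with DAPT. The replicates lay close together in both groups, and the groups did not overlap. The log2 fold change was -0.34 ± 0.06 (SE; adjusted p = 4.71e-05, edgeR quasi-likelihood test), and it was -0.35 without control replicate 1.

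*CDK4* fell and *CDK6* did not pass the test, and the ratio bears on the difference directly. *CDK6* per *CDK4* was 0.438, 0.399 and 0.442 in the controls and 0.678, 0.500 and 0.557 with DAPT. The DAPT libraries were all higher, by 0.43 on the log2 scale (exact permutation p = 0.1, adjusted 0.167). The kinases summed to 294 to 296 TPM in the controls and 243 to 254 TPM with DAPT.

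**Figure D3:**
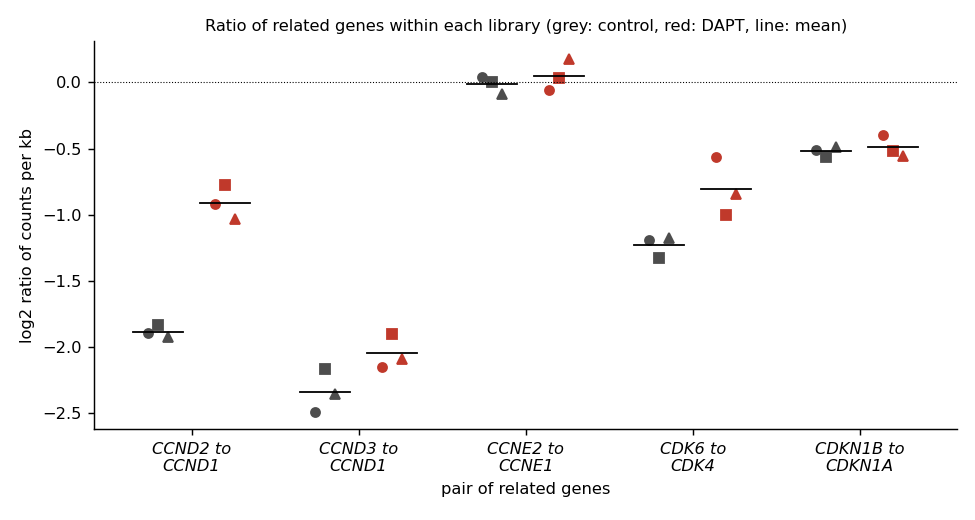
Log2 ratio of 5 pairs of members per kilobase of exon in each library, with a point for each library and a line at the group mean. *CCND2* to *CCND1*, *CCND3* to *CCND1* and *CDK6* to *CDK4* did not overlap between control and DAPT, whereas *CCNE2* to *CCNE1* and *CDKN1B* to *CDKN1A* did.

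Promoter windows of 300 bases, from 250 before a start site to 50 after it, were used from RefSeq (GRCh38.p14) for 6 of the 10 members, in 9 windows. No window of *CCND1*, *CCND2*, *CCNE2* or *CDK2* was among them. Each was searched for the letters of 4 kinds of site, and a window of *CDK4* and a window of *CDK6* are shown because only these held a match. The match was the E-box CACGTG, a site that MYC with its partner MAX is known to bind. The sequences run 5′ to 3′ on the gene's strand, and capitals mark each E-box. *CDK4* is on the minus strand at chr12:57752261-57752560 and *CDK6* on the minus strand at chr7:92836524-92836823.
CDK4: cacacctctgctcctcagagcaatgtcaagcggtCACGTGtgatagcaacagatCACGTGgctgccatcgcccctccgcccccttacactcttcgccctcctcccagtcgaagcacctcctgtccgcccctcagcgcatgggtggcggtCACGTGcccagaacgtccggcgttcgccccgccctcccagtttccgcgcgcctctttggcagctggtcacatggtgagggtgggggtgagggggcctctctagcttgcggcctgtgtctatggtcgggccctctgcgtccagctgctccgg
CDK6: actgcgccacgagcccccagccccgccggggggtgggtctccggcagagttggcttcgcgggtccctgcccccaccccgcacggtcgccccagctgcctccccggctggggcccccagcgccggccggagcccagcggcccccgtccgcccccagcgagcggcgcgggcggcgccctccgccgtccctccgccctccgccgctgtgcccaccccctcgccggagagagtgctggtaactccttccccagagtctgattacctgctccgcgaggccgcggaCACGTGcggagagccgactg
The *CDK4* window held 3 E-boxes, at -216, -196 and -101 relative to the start site. The *CDK6* window held 1, at position 31, and the other window of that gene held none. Among all 35116 windows of the table, 7.26% held at least 1 E-box and 33 windows, 0.094%, held at least 3. The count of at least 3 was not planned and takes its cut from the *CDK4* window, so it does not test that window. A match of letters is a description of the window and not evidence of binding, and a link of *MYC* to these genes was not tested. *MYC* itself measured 70.9 CPM in the controls and 41.5 CPM with DAPT, a log2 fold change of -0.77 (adjusted p = 2.7e-09, edgeR quasi-likelihood test).

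*CDKN1A*, at chr6:36676460-36687339 on the plus strand, encodes p21, which blocks CDK2. It measured 166, 179.9 and 175 CPM in the controls and 210.4, 215 and 208 CPM with DAPT. All 3 DAPT libraries were higher. The log2 fold change was 0.29 ± 0.05 (SE; adjusted p = 0.000116, edgeR quasi-likelihood test), a rise of 21.9%, and it was 0.25 without control replicate 1. On the TPM scale it was the most abundant member in both groups, at 198 ± 8.09 and 259 ± 4.45 TPM.

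*CDKN1B*, at chr12:12715058-12722369 on the plus strand, encodes p27, which holds cyclin E and CDK2 inactive in resting cells. It measured 98.0, 102 and 105 CPM in the controls and 134, 127 and 119 CPM with DAPT. All 3 DAPT libraries were again higher. The log2 fold change was 0.32 ± 0.05 (SE; adjusted p = 0.000114, edgeR quasi-likelihood test), a rise of 24.6%, and it was 0.29 without control replicate 1. Both inhibitors rose, and *CDKN1B* per *CDKN1A* was 0.677 to 0.715 in the controls and 0.682 to 0.758 with DAPT (exact permutation p = 0.7, adjusted 0.7). Together they summed to 322 to 346 TPM in the controls and 433 to 450.2 TPM with DAPT. Their rises were smaller on the CPM scale of the test. There the means went from 174 to 211 for *CDKN1A* and from 102 to 127 for *CDKN1B*.

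The promoter windows of *CDKN1A*, at chr6:36678464-36678763 on the plus strand, and *CDKN1B*, at chr12:12717118-12717417 on the plus strand, are shown as those of the members that rose and have a window.
CDKN1A: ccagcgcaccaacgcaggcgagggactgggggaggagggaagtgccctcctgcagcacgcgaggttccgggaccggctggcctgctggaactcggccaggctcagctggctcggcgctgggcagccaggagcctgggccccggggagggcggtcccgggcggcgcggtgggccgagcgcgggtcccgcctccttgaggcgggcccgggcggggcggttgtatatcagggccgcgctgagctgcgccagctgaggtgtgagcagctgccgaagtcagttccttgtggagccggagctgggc
CDKN1B: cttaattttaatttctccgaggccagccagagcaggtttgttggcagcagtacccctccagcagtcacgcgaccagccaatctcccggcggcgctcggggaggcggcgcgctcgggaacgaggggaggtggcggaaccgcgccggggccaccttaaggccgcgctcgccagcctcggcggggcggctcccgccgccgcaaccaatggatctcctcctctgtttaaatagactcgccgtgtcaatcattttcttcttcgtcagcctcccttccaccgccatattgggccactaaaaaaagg
Neither held an E-box. In none of the 9 member windows did a search of both strands find TGGGAA, the core letters bound by RBPJ, the DNA-binding partner of Notch. The same was true of the E2F letters TTTCCCGC, TTTCGCGC, TTTGCCGC and TTTGGCGC and of the AP-1 letters TGACTCA and TGAGTCA. Of all windows in the table, 24% held the RBPJ letters, 3.31% an E2F and 4.95% an AP-1 sequence. The absence of these letters says only that they are not in these windows. It says nothing of *CCND1*, *CCND2*, *CCNE2* and *CDK2*, which had no window here.

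**Figure D4:**
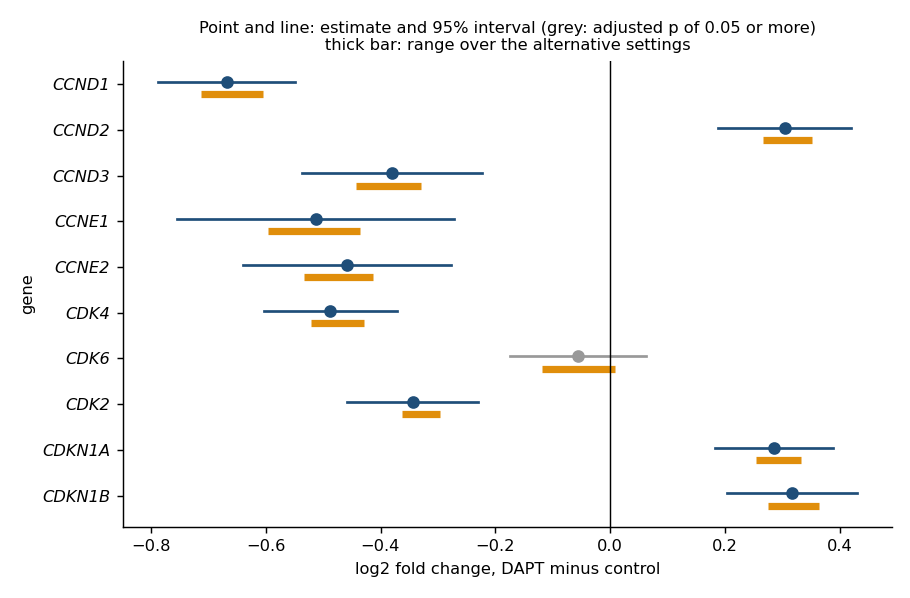
Log2 fold change of DAPT over control for the 10 members, with the 95% confidence interval of the edgeR fit as a thin line and the range over the alternative settings as a thick bar. *CCND1* lay farthest below 0 at -0.67, *CDKN1B* farthest above at 0.32, and the interval of *CDK6* included 0.

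The order of the members by TPM also differed between the groups. In the controls it ran from *CDKN1A* through *CDK4*, *CDKN1B*, *CCND1*, *CDK2*, *CDK6*, *CCND2* and *CCND3* to *CCNE1* and *CCNE2*. Of these neighbours, *CDK2* and *CDK6* overlapped in their library values, at 69.6 ± 1.12 and 67.4 ± 2.78 TPM, as did *CCNE1* and *CCNE2*. With DAPT, *CDKN1B* stood at 185 ± 9.36 TPM above *CDK4* at 121 ± 9.30 TPM, where in the controls it had stood below, at 138 ± 5.64 against 158 ± 2.65 TPM. Across libraries, the values of *CCND1*, at 81.5 ± 6.25 TPM, overlapped those of *CDK6*, at 69.6 ± 5.75 TPM, with DAPT and not in the controls. Within each DAPT library *CCND1* was still the higher, at 85.7 against 74.9, 74.4 against 63.5 and 84.6 against 70.3 TPM. *CDK6* had a slightly higher mean TPM and a slightly lower mean CPM with DAPT, which shows that the sign of its small difference depended on the scale.

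Of the other genes of the pathway, 49 were tested in 7 lists. Against 18.0% lower and 17.2% higher of all tested genes, 23 of them were called lower and 4 higher. Without control replicate 1 these counts were 21 and 4. The 4 higher genes became 2 when control replicate 3 was left out, and 1 when control replicate 2, DAPT replicate 1 or DAPT replicate 3 was. The lists were written with earlier results of these data known.

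Among the RB and E2F genes, 6 of 10 were lower and none was higher (median log2 fold change -0.19), against 18.0% and 17.2% of all tested genes. The largest decreases were -1.09 for *E2F2* and -0.66 for *E2F1* (adjusted p = 3.83e-06 and 2.14e-05, edgeR quasi-likelihood test), which encode activators of S-phase genes. *RB1* itself was lower by a smaller amount, -0.16. All 5 cyclins and kinases of S phase to mitosis were lower (median -0.33), with *CDK1*, the mitotic kinase, at -0.47 and *CCNB1*, its cyclin, at -0.41 (adjusted p = 1.03e-06 and 2.04e-06, edgeR quasi-likelihood test).

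Of the genes that control turnover of G1 cyclins and inhibitors, 4 of 11 were lower and 1 was higher (median -0.12). Beside this and the next list counts stand the shares of all tested genes, 18.0% lower and 17.2% higher. *USP2*, a deubiquitinase of cyclin D1, changed by -0.45, and *CKS2*, a small subunit of cyclin-dependent kinases, by -0.40. *SKP2*, whose ligase complex targets p27, was at -0.30. *GSK3B*, a kinase that marks cyclin D1 for export and decay, was at 0.15. Of the CDK-activating and CDC25 enzymes, 2 of 6 were lower and none higher (median -0.11), with *CDC25A*, the phosphatase that activates CDK2, at -0.57 and *MNAT1*, a subunit of the CDK-activating kinase, at -0.16. Of 5 other CDK inhibitors, 4 were tested and 1 was lower, *CDKN2B* at -0.18 (adjusted p = 0.046, edgeR quasi-likelihood test). *CDKN1C*, which encodes p57, was too low to test, with means of 0.124 CPM in the controls and 0.120 CPM with DAPT.

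Upstream of the D-type cyclins, 4 of 10 mitogen and MYC factors were lower and 2 higher (median -0.09). *MYC* and *ETS1* were lower, at -0.77 and -0.74, and *EGR1* and *STAT3* were higher, at 0.86 and 0.14. Of 3 FOXO factors, regulators of *CDKN1B*, *FOXO1* was lower at -0.29 and *FOXO3* higher at 0.15 (median -0.08). Over all tested genes, 18.0% were lower and 17.2% higher, with a median of 0.01, and no list was tested as a set against them.

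**Figure D5:**
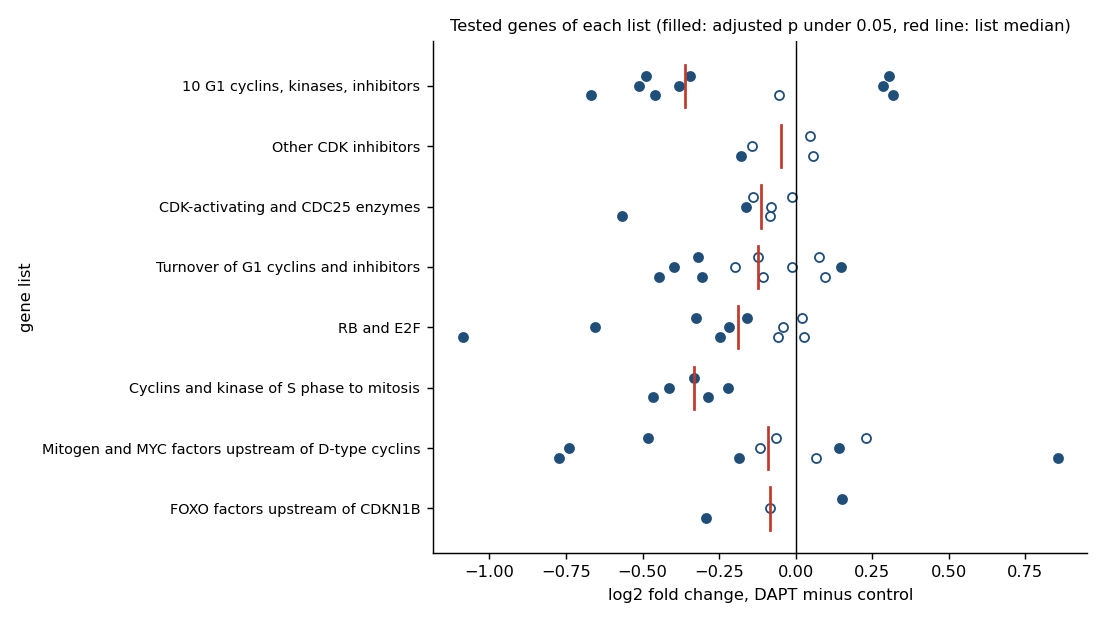
Log2 fold change of DAPT over control for the 10 members (top row) and each tested gene of the 7 pathway lists, filled where the adjusted p was under 0.05, with a red line at the list median. Among the pathway lists the median of the S phase to mitosis list lay lowest, at -0.33, and that of the other CDK inhibitors highest, at -0.05, and the median of the members was -0.36.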

How the data were processed

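HSC-4 libraries treated with DAPT (n = 3) and control libraries (n = 3) were compared. Per the labels and the paper, the authors used Trim Galore for trimming and HISAT2 for alignment to GRCh38. Per the file headers, reads were then counted on exons of Ensembl genes, by strand, with featureCounts 1.6.3. The submitters' processing notes list HTSeq instead, and the headers were followed here. The deposited values are raw read counts, without normalisation. Reads overlapping several genes or mapping to several places were left out by the counting defaults.

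Counts were fitted with edgeR 4.0.16 in R 4.3.3 (low-count filter at 10, TMM factors, robust quasi-likelihood F test, Benjamini-Hochberg adjustment over 15001 genes, called at an adjusted p under 0.05, two-sided). CPM values are TMM-normalised, and TPM values were computed from counts and exon lengths without TMM factors. Ratios were tested by exact permutation over the 6 libraries. The procedure was tested on simulated data in which few genes changed. Many genes were called here, so that test does not cover the scaling of data like these. Of 58884 gene identifiers, 58472 were matched to GENCODE symbols. At these depths 3 reads equal 0.187 to 0.248 CPM, a floor that covers counting error only.

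The members and gene lists were chosen with earlier results of these data known. All 10 members are named, and of each list the 2 largest called changes in each direction. 1 further list of the design is not reported here. *SKP2*, *RB1* and *CDKN1C* were added after their values were seen. Alternatives were RLE and library-total scaling, DESeq2 1.42.0, limma-voom (limma 3.58.1), other filters and thresholds, a fit that is not robust, a replicate block and each library left out. Promoters are from RefSeq.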

Additional observations from a re-analysis of the deposited data

How the results depend on the processing

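The 9 called members kept their direction and their call when each of the 6 libraries was left out in turn, and under RLE and library-total scaling, DESeq2, limma-voom, a fit that was not robust, the other low-count filters, and the replicate block. With at least a 1.5-fold change required, 1 member was called lower and 0 higher, and 4 pathway genes lower and 1 higher. *CDK6* ranged from -0.12 to 0.01 on the log2 scale over the libraries left out, and turned to 0.0078 without DAPT replicate 2 (adjusted p = 0.941, edgeR quasi-likelihood test). *CDKN1B* per *CDKN1A* ranged from -0.0167 to 0.0601 (log2 difference) over the same libraries. The pathway genes called higher numbered 4 with all libraries, 2 with DESeq2, 1 at an adjusted p under 0.01, and 1 to 4 over the libraries left out. Scaling by library totals alone moved the share of higher genes among all calls from 48.7% to 61.5%, and the median of all genes from 0.01 to 0.06. Same-numbered libraries correlated at 0.0102, 0.0282 and -0.0162 in their deviations from the group means. Of 3 DAPT libraries, 1 correlated best with its own number. With 3 libraries per group, these values cannot decide whether the numbers pair the libraries. With the replicate block, 6 members were lower and 3 higher, and 23 pathway genes lower and 4 higher. The depth limits *CCNE1* most, at 103 to 208 reads per library.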

Other observations

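*CCND2-AS1*, a gene on the strand opposite *CCND2*, had 16, 15 and 16 reads in the controls and 34, 38 and 31 with DAPT. It was named after its values were seen. It rose with DAPT, by 1.12 on the log2 scale (adjusted p = 0.00153, edgeR quasi-likelihood test), as did *CCND2* on the other strand at 0.30. These are few reads, and counting was by strand. The genes opposite *CCND1* and *CCNE2* did not pass the test, with *LTO1* at 0.13 and *INTS8* at 0.09 on the log2 scale (adjusted p = 0.161 and 0.193, edgeR quasi-likelihood test). Nor did *PMEL*, opposite *CDK2*, at -0.46 with 18 to 46 reads per library (adjusted p = 0.198, edgeR quasi-likelihood test).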
